A study of Mus musculus with 6 samples.

Results

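The genes described here encode the proteins of the cytosolic ribosome, measured in mouse Tregs, regulatory CD4 T cells marked by Foxp3 that keep other immune cells in check. Members were chosen by symbol: every protein-coding gene of GENCODE M21 named Rpl or Rps plus a number, with or without a letter suffix, together with Rpsa, Rplp0, Rplp1 and Rplp2. S6 kinases and pseudogenes were left out. The rule found 84 genes among the 53379 identifiers of the deposited tables, of which 52 encode proteins of the large (60S) subunit and 32 proteins of the small (40S) subunit. The rule used no measured value, although it was set with earlier results of these data known.

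C57BL/6 mice aged 3 months gave 2 groups of 3 libraries. The bKO group carried Foxp3YFP-Cre with Junb flanked by lox sites on both alleles (Foxp3YFP-CrexJunbFlox/Flox). The WT group carried the same Foxp3YFP-Cre allele with intact Junb (Foxp3YFP-CrexJunb+/+), so the Cre transgene was common to all 6 libraries. Cre made from the Foxp3 locus acts in Foxp3-expressing cells; the sources used here do not give the sorting gate. The comparison asked what the loss of JunB, which pairs with Fos-family proteins to form AP-1, changed in Treg RNA. Nothing in the labels says whether the 3 libraries of a group came from separate mice, so a p-value here reflects how these libraries spread, and that spread may be technical.

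A ribosome holds a single copy of nearly every ribosomal protein, and only the acidic stalk proteins are present in several copies. Their mRNAs are short, very abundant and begin with a tract of pyrimidines (the TOP motif), through which mTORC1 controls their translation. In resting lymphocytes ribosomes are few, and activation through the T cell receptor drives the making of new ones. Ribosomal protein mRNAs have been copied back into the mammalian genome many times, which has left a large number of processed pseudogenes with nearly the same sequence.

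Total counts were 38508759, 34707353 and 36898119 in bKO replicates 1 to 3, and 34341613, 33784183 and 41231173 in WT replicates 1 to 3. Junb had 57.1, 57.3 and 49.6 counts per 1000000 (CPM) in the bKO libraries, against 87.1, 77.5 and 89.5 CPM in the WT libraries. The groups did not overlap, and the bKO level was 64.5% of the WT level. The log2 difference was -0.63 (SE 0.13), with an exact two-sided permutation p of 0.1, the smallest that 3 libraries against 3 allow. Its edgeR quasi-likelihood p was 0.00163 and the Benjamini-Hochberg adjusted p 0.9999, while DESeq2 gave an adjusted p of 0.00417. The sources used here do not give the part of Junb that Cre removes, and all exons of the gene were counted together. The names of the deposited tables carry a number that is shared by bKO 2, WT 1 and WT 2 (here set A) and another shared by bKO 1, bKO 3 and WT 3 (set B). What that number stands for is not stated. Summed Treg marker levels were 1056 to 2495 CPM in bKO and 2286 to 2645 CPM in WT, and summed T cell marker levels were 6981 to 7897 CPM in bKO and 7471 to 9015 CPM in WT. Summed B cell marker levels were 542.5 to 702 CPM in bKO and 131 to 1134 CPM in WT, and summed myeloid marker levels were 526 to 1291 CPM in bKO and 226 to 1192 CPM in WT. Summed conventional CD4 T cell marker levels were 1577 to 2433 CPM in bKO and 1458 to 1899 CPM in WT, and summed CD8 T and NK cell marker levels were 130.3 to 224 CPM in bKO and 88.3 to 187 CPM in WT. The groups overlapped in all 6 sums, and none of the 60 markers was at 0 in all libraries. Single markers leaned more to a side than the sums show, although edgeR called 0 of them after adjustment. Log2 differences below 0 were found in 10 of 10 Treg markers (median -0.49) and 9 of 10 T cell markers (median -0.15). Differences above 0 were found in 10 of 10 myeloid markers (median 0.71) and 9 of 10 conventional CD4 T cell markers (median 0.31). They were also found in 9 of 10 CD8 T and NK cell markers (median 0.56) and 8 of 10 B cell markers (median 0.39). Among all genes tested, 50.9% lay above 0 and 49.1% below. Without overlap, 2 Treg markers and 1 T cell marker were lower in bKO, against 4.07% of all genes. Higher in bKO without overlap were 2 conventional CD4 T cell markers, against 3.68% of all genes. No myeloid, B cell or CD8 T and NK cell marker separated the genotypes. In bulk RNA, fewer cells of a type and less RNA per cell cannot be told apart.

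How far the counts of a ribosomal protein gene are its own is shown by its sequence. Rps27, a zinc-binding protein of the small subunit, had the highest level per length of all members, and 2 other genes encode like proteins: Rps27l, a member with its own introns, and Rps27rt, a retrogene that the naming rule leaves out. The first 90 bases of the 3 coding sequences are printed from GENCODE M21 transcripts (GRCm38), with bases that differ from Rps27 in capitals.
Rps27: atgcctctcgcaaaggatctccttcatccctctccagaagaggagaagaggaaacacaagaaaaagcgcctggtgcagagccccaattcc
Rps27rt: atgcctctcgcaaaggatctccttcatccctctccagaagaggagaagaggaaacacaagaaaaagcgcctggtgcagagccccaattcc
Rps27l: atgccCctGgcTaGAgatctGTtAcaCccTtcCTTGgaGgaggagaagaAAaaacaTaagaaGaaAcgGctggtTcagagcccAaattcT

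Over the whole coding sequence of 252 bases, Rps27rt differed from Rps27 at 0 bases, and Rps27l at 60 bases (76.2% identity). Rps27 lies at chr3:90212522-90213651 on the minus strand, Rps27rt at chr9:114982366-114982739 on the minus strand and Rps27l at chr9:66946086-66949516 on the plus strand. All 203 stretches of 50 bases, the read length, in the Rps27 coding sequence occur in Rps27rt, and 0 of them in Rps27l. A read from the Rps27 coding sequence therefore matches Rps27rt as well. Rps27rt had 2436, 1839 and 2314 CPM in bKO, against 2028, 1659.7 and 2537 CPM in WT, and Rps27 had 1632, 1238 and 1551 CPM in bKO, against 1371, 1127 and 1697 CPM in WT. The order of the 6 libraries was the same in both genes, from WT 3 at the top to WT 2 at the bottom.

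The same held for the family at large. The median member shared 60.6% of its 50-base stretches with another annotated gene, 54 of the 84 members shared more than 50%, and 3 shared none. Together 414 genes, 383 of them pseudogenes, shared at least 100 such stretches with a member. These copies held 16.5 ± 1.47% of the counts of the bKO libraries and 16.03 ± 1.99% of those of the WT libraries (SD, n = 3 each). The members themselves held 6.56%, 5.51% and 6.16% of the counts in bKO 1 to 3, against 5.77%, 5.25% and 6.77% in WT 1 to 3. The group means were 6.08 ± 0.53% in bKO and 5.93 ± 0.77% in WT (SD, n = 3 each), and the groups overlapped. The 95% Wilson interval of each share was at most 0.0156 percentage points wide. It takes each count as a separate read and covers counting error only. For each count at a member there were 2.72 ± 0.0078 counts at copies in bKO and 2.71 ± 0.020 in WT. For 66 members the genes sharing most of their sequence included a pseudogene, and 46 of these members had fewer counts than the closest pseudogene. Rpl3 had 316350 counts over all libraries and its copy Rpl3-ps1 had 422404. Values of members are thus the counts assigned to a gene, and they may include reads from its copies. Rps27, with 98.6% of its stretches shared, kept high counts, so reads matching several genes were not all left out. Whether such a read was counted once or at each place is not stated. The shares of members and copies may therefore not be shares of separate reads, and the split between a gene and its copies is uncertain.

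**Figure D1:**
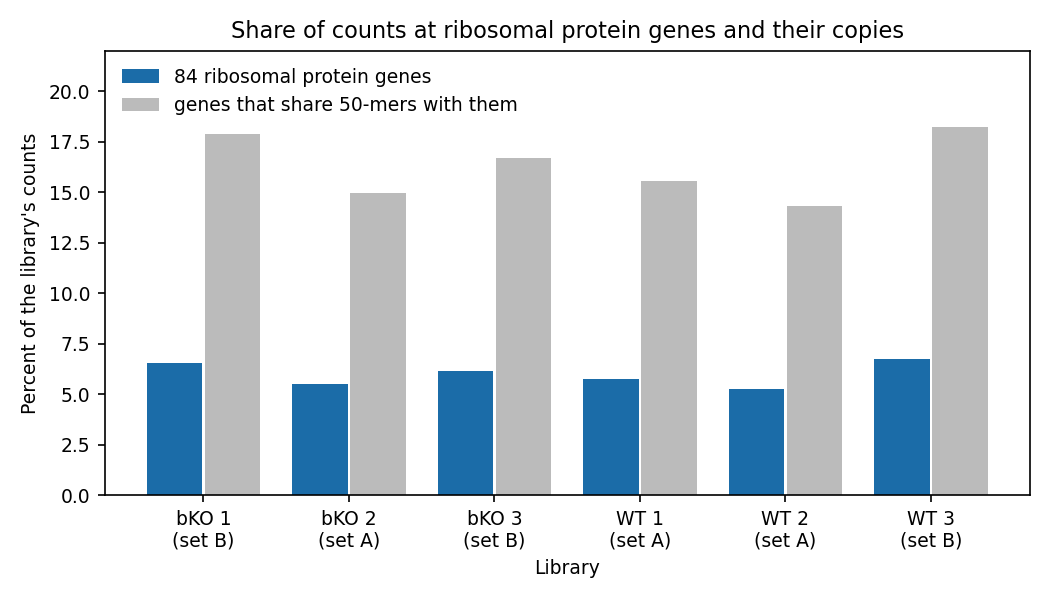
Percent of each library's counts (vertical axis) at the 84 ribosomal protein genes (blue bars) and at the 414 genes that share 50-base stretches with them (grey bars), for 3 bKO and 3 WT libraries (horizontal axis). Both bars are highest in WT 3 and lowest in WT 2, and the copies hold about 2.7 times the members' counts in each library.

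Ribosomal protein genes were among the highest genes of these Tregs. RPKM, counts per kilobase of the gene's shortest CCDS transcript and per 1000000 counts, had a median of 809 over the members, against 6.34 over the 12763 protein-coding genes tested. Of the 100 protein-coding genes with the highest RPKM, 43 were members. The median RPKM was 986 for the 40S genes and 672 for the 60S genes. Although nearly all of the proteins are needed in equal numbers, the RPKM of their genes was not even: the 90th percentile was 1888 and the 10th was 283, a ratio of 6.68. RPKM rests on 1 annotated transcript per gene, from 271 bases to the 3706 bases of Rps20, and on counts that copies may share. The spread is therefore not one of mRNA amounts alone.

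The 6 members with the highest RPKM were Rps27 (4162), Rpl41 (3057), Rpl32 (3028), Rps19 (2699), Rpl13 (2636) and Rps14 (2465). Rpl41, which encodes a very short basic peptide between the subunits, had 1457, 1211 and 1384 CPM in bKO, against 1249.6, 1118 and 1595 CPM in WT. Rps19, the gene most often mutated in human Diamond-Blackfan anaemia, had 1974, 1537 and 1736 CPM in bKO, against 1627, 1423 and 1956 CPM in WT. Rps14, a small-subunit gene whose loss lowers red cell production in a human myelodysplastic syndrome, had 1609, 1289 and 1576 CPM in bKO, against 1375, 1252 and 1729 CPM in WT. In all of these genes the bKO values lay within the range of the WT values or overlapped it. Rpl32 had 1705, 1381 and 1625 CPM in bKO, against 1452, 1292 and 1937 CPM in WT. Rpl13 had 2353, 1815 and 1971 CPM in bKO, against 1983, 1829 and 2386 CPM in WT. The log2 differences of these 6 genes, bKO minus WT, ran from -0.01 (Rpl13, SE 0.14) to 0.08 (Rps27, SE 0.18).

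Members with many copies lay mostly in the lower part of the scale. So did members with few or none, among them the paralogues Rps27l, Rpl7l1 and Rpl39l given below. In 9 members more than 10% of the 50-base stretches occurred in 10 or more other genes. Their median RPKM was 301, with a range of 133 to 1336, against 868 for the other 73 members tested. Rps2, with 62.3% of its stretches in 10 or more genes, had an RPKM of 133, and Rpl7a, with 55.4%, had 179. Rpl23a, with 21.3%, had 1336. The sources used here do not say how reads with several matching places were counted.

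**Figure D2:**
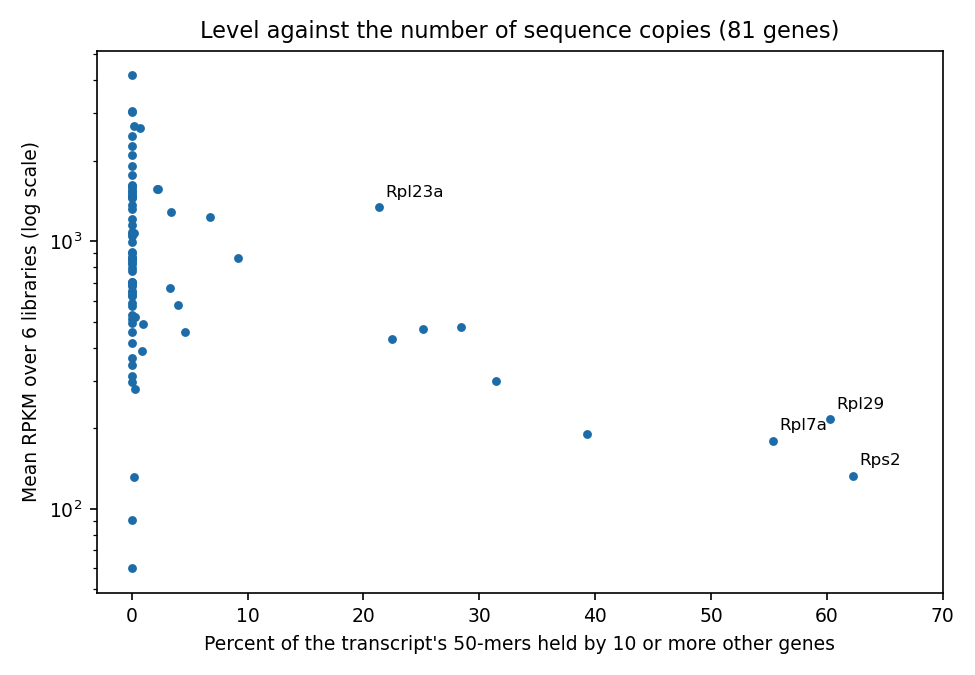
Mean RPKM over the 6 libraries (vertical axis, log scale) against the percent of each transcript's 50-base stretches that occur in 10 or more other genes (horizontal axis), 1 point per tested member without Rpl39l. Of the 9 genes above 10%, the 4 whose values are given in the text are labelled, and Rpl23a (RPKM 1336) stands above the other 8.

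Several ribosomal proteins have a second gene of like name. Rpl22l1, the paralogue of Rpl22, which alpha-beta T cells need for their development, stood at 65.4 ± 5.15% of the Rpl22 RPKM in bKO and 63.7 ± 1.21% in WT (SD, n = 3 each). Rpl22 had 238, 203 and 215 CPM in bKO, against 208, 186 and 257 CPM in WT. Rpl22l1 had 172, 135 and 168 CPM in bKO, against 150.1, 130.4 and 178 CPM in WT. The groups overlapped in both genes, with log2 differences of 0.01 (SE 0.15) for Rpl22 and 0.05 (SE 0.16) for Rpl22l1. Rpl36al, an autosomal paralogue of the X-linked Rpl36a, stood at 73.3 ± 7.78% of Rpl36a in bKO and 78.4 ± 2.73% in WT (SD, n = 3 each). Rpl36a had 228, 177 and 209 CPM in bKO, against 193, 159.7 and 237 CPM in WT. Rpl36al had 183, 156 and 149 CPM in bKO, against 159, 141 and 203 CPM in WT, and here too the groups overlapped.

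Other paralogues were far below their partners. Rps27l, a p53-induced gene in human cells, reached 2.12 ± 0.26% of the Rps27 RPKM in bKO and 2.27 ± 0.054% in WT (SD, n = 3 each), with 52.2, 41.6 and 41.1 CPM in bKO, against 44.6, 36.2 and 57.1 CPM in WT. Rpl7l1 stood at 5.46 ± 0.99% of Rpl7 in bKO and 5.71 ± 1.18% in WT (SD, n = 3 each). Rpl7l1 had 74.2, 86.9 and 69.0 CPM in bKO, against 81.3, 90.4 and 69.6 CPM in WT, and it was the single member with all set B libraries below all set A libraries, against 8.31% of all genes. Rpl7 itself had 1402, 1173 and 1199 CPM in bKO, against 1230.2, 1178 and 1386 CPM in WT. Rpl39, an X-linked gene of the large subunit, had 349.8, 262 and 321 CPM in bKO, against 302, 240.5 and 409.9 CPM in WT. Its paralogue Rpl39l, known from male germ cells, had 0.053, 0.26 and 1.21 CPM in bKO, against 0.23, 0.73 and 1.04 CPM in WT, or 0.18 ± 0.21% of Rpl39 in bKO and 0.24 ± 0.13% in WT (SD, n = 3 each). At this level its log2 difference of -0.39 had a 95% interval of -3.11 to 2.32, so that no difference could be measured.

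The 2 members that did not pass the filter on low counts were Rpl3l and Rpl10l. Rpl3l, the heart and skeletal muscle paralogue of Rpl3, had 0, 0 and 0 counts in bKO, against 3, 15 and 4 counts in WT. A count of 0 allows up to 3 counts in a library, the level of the lowest WT library. Rpl10l, the testis paralogue of the X-linked Rpl10, had 0 counts in all 6 libraries, while Rpl10 had 619, 480.5 and 524 CPM in bKO, against 509, 479 and 584 CPM in WT.

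**Figure D3:**
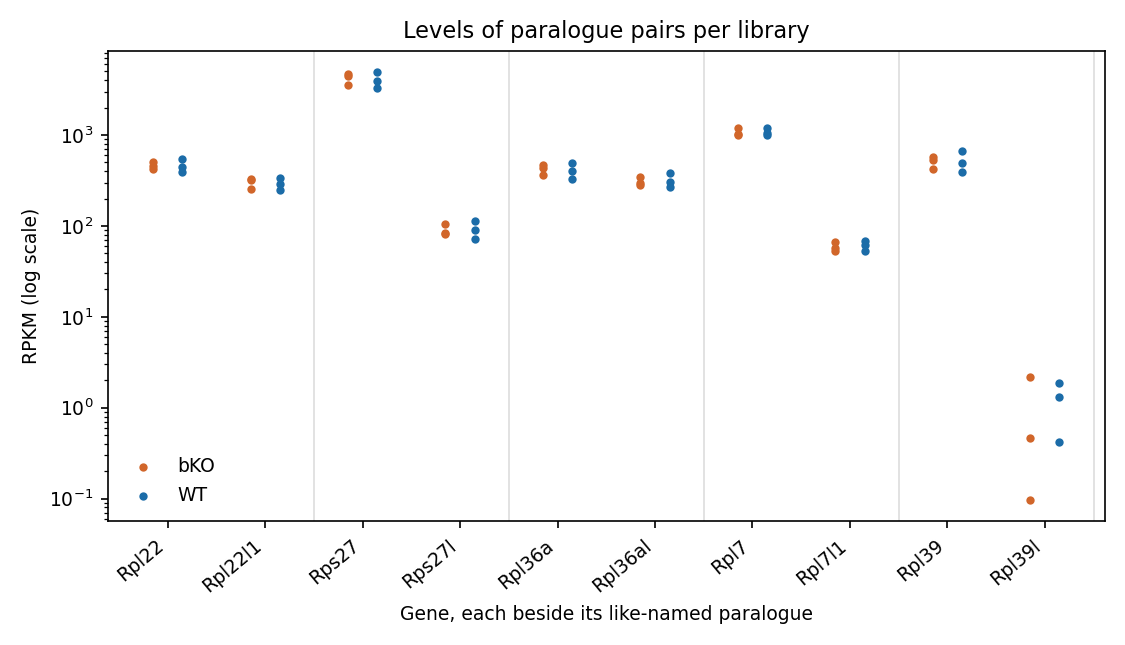
RPKM per library (vertical axis, log scale) of 5 members and, to the right of each, the paralogue of like name (horizontal axis); bKO libraries are orange and lie left of the WT libraries in blue. The genotypes overlap in all 10 genes, Rpl22l1 and Rpl36al lie close to their partners, and Rpl39l lies lowest.

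Between the genotypes, no ribosomal protein gene passed the test. The edgeR quasi-likelihood test called 0 of the 82 members tested at an adjusted p of 0.05, and 0 (0.0%) of the 20475 genes tested. At an unadjusted p of 0.05 it called 0 members, against 2.88% of all genes tested, and limma-voom also called 0 members at that level, against 3.61%. DESeq2 called 0 members after adjustment, against 0.272% of the genes to which it gave an adjusted p. Unadjusted it called 1 of 83 members, against 3.69% of all genes, and that member was Rpl3l.

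The estimates were close to 0 and, for this design, narrow. The median log2 difference over the members was 0.03, against 0.01 over all genes tested, and 74 of the 82 members lay within 0.1 of 0. The 95% interval stayed within 1 log2 unit of 0, a 2-fold change, in 80 of 82 members, against 44.5% of all genes. It stayed within 0.5 log2 units in 66 members, against 12.6% of all genes. The median coefficient of variation between libraries in the fit was 17.8% for members and 36.9% for all genes. These comparisons were not matched on level: the median RPKM was 809 for members and 6.34 for the protein-coding genes tested. The 2 members whose interval went past 1 log2 unit were Rpl39l and Rpl29, for which it ended at 1.03. Rpl29, a member with 60.3% of its stretches in 10 or more other genes, had 149.5, 128 and 138 CPM in bKO, against 62.5, 117 and 159.8 CPM in WT, with a log2 difference of 0.29 (SE 0.31). Its lowest value was that of WT 1. The closest pseudogene, Gm6344, had 0.032 counts per Rpl29 count in the library with the lowest ratio, against 0.249 in that with the highest. With 1462 counts at Gm6344 over all libraries, the highest ratio can only be that of WT 1. The low WT 1 value may therefore not be a level of Rpl29 mRNA alone, and the part of the copy in the difference was not tested.

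**Figure D4:**
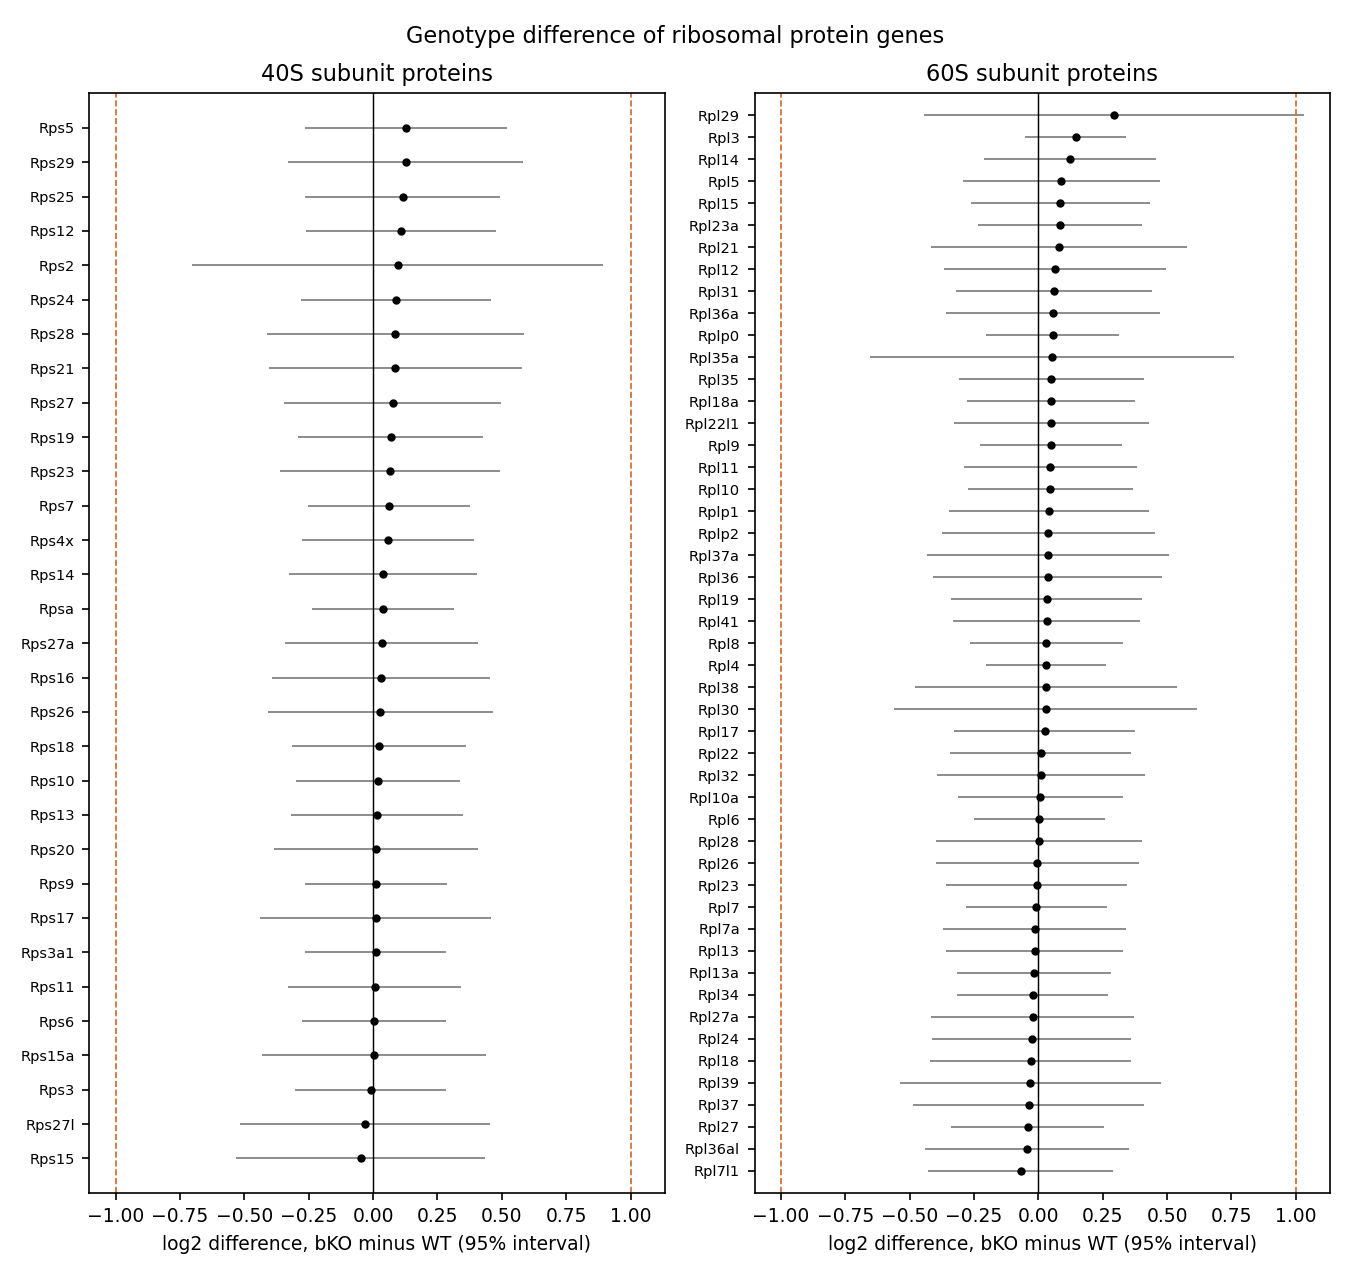
Log2 difference, bKO minus WT (horizontal axis), with its 95% interval from the edgeR fit for 31 of the 32 tested genes of the 40S subunit (left) and 49 of the 50 of the 60S subunit (right, without Rpl39l), ordered by the difference; dashed lines mark 1 log2 unit on either side of 0. Every interval drawn includes 0, and apart from that of Rpl29, which ends at 1.03, all stay within the dashed lines.

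Rpl3, a core protein near the peptidyl transferase centre of the large subunit, was the 1 member of 82 whose libraries did not overlap between the genotypes with bKO higher, against 3.68% of all genes. None was lower without overlap, against 4.07% of all genes, and in either direction 7.76% of all genes did not overlap. Rpl3 had 1546, 1485 and 1517 CPM in bKO, against 1379, 1361 and 1372 CPM in WT, and each bKO library was above every WT library. The gene lies at chr15:80077791-80091868 on the minus strand (GRCm38). Its log2 difference of 0.15 (SE 0.08) had an unadjusted edgeR p of 0.124, the smallest of the members, and an adjusted p of 0.9999. Within set A the difference was 0.12 and within set B it was 0.16.

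Of the members, 63 of 82 had a log2 difference above 0, against 50.9% of all genes, 29 of 32 in the 40S subunit and 34 of 50 in the 60S subunit. This majority rested on single libraries. Without WT 2 it turned, with 10 members above 0, 72 below and a median of -0.07, and without bKO 1 it also turned, with 13 above 0, 69 below and a median of -0.05. Without WT 1 the median was 0.004, with 48 above 0, and without bKO 3 it was 0.02, with 58 above 0. Without WT 3, on the other hand, 80 were above 0 with a median of 0.17, and without bKO 2 there were 77 with a median of 0.12. A term for the set in the fit gave 11 above 0, 71 below and a median of -0.07. Each of these fits called 0 members. The summed share showed the same dependence: bKO minus WT was 0.15 percentage points over all libraries, 7.9e-05 within set A and -0.40 within set B.

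The libraries differed more than the genotypes. WT 3 had the highest CPM of the 6 libraries in 55 of 82 members, against 20.5% of all genes, and WT 2 had the lowest in 69 members, against 18.3%. The median member deviated from its own mean over libraries by 0.18, -0.15 and 0.04 log2 units in bKO 1 to 3, and by -0.06, -0.23 and 0.23 in WT 1 to 3. All 3 libraries of set B lay above all 3 of set A in 63 members, against 9.78% of all genes. The median member was 0.26 log2 units higher in set B than in set A within bKO, and 0.38 within WT. Non-member genes with transcripts under 800 bases were also higher in set B, by a median of 0.11 within bKO and 0.20 within WT. Non-member genes of 1600 to 3200 bases differed by -0.04 within bKO and -0.06 within WT. The median member transcript is 680.5 bases long. Summed B cell markers were 702, 622 and 542.5 CPM in bKO 1 to 3, and 189, 1134 and 131 CPM in WT 1 to 3. In WT they were highest in WT 2, where the family was lowest, and lowest in WT 3, where it was highest, but bKO 1 was second highest in both. Set B minus set A of the B cell markers was 0.02 log2 units within bKO and -1.94 within WT. Summed myeloid markers were 976, 1291 and 526 CPM in bKO 1 to 3, and 374, 1192 and 226 CPM in WT 1 to 3, with set B minus set A at -0.83 log2 units within bKO and -1.75 within WT. The part of transcript length, the set, B cell RNA and myeloid RNA in these library differences was not tested.

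**Figure D5:**
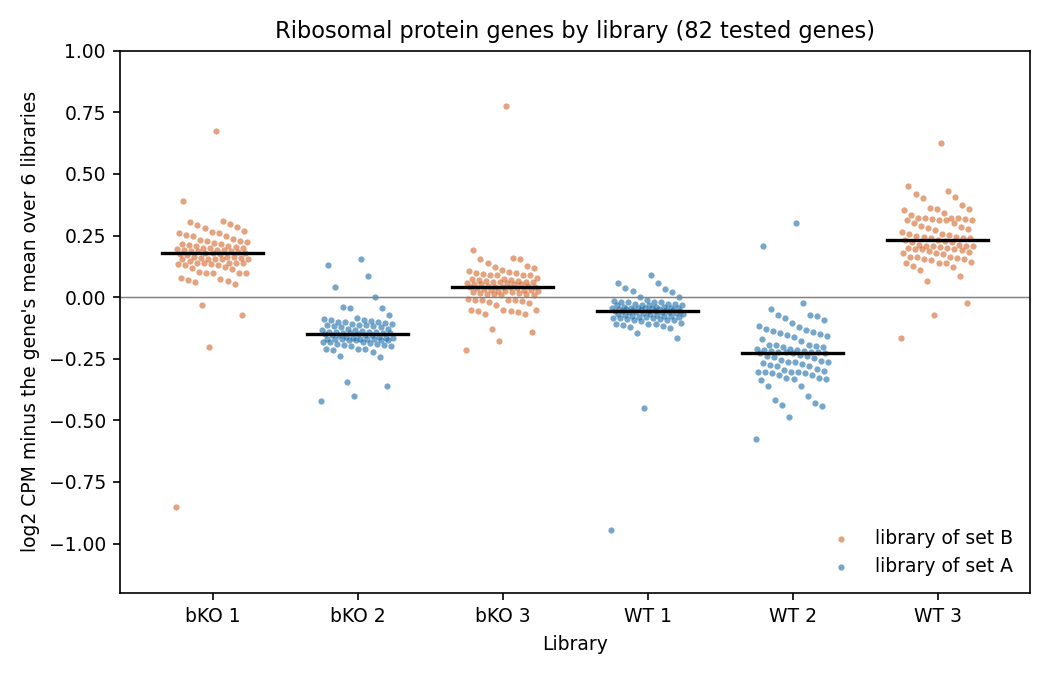
Log2 CPM of each of the 82 tested members minus that gene's mean over the 6 libraries (vertical axis), by library (horizontal axis); black lines are medians and colour marks the set shared in the table names. Medians are 0.18, -0.15 and 0.04 in bKO 1 to 3 and -0.06, -0.23 and 0.23 in WT 1 to 3.

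The 2 subunits kept their proportion between the genotypes. The ratio of 40S to 60S counts was 0.79 ± 0.013 in bKO and 0.78 ± 0.013 in WT (SD, n = 3 each). By library it was 0.793, 0.774 and 0.800 in bKO 1 to 3, and 0.787, 0.769 and 0.796 in WT 1 to 3. All set B libraries thus lay above all set A libraries, by a small amount. Proteins singled out for their roles behaved as the family did. Rpsa, the laminin receptor homologue of the small subunit, had 2254, 1924 and 2056 CPM in bKO, against 1936, 1861 and 2276 CPM in WT. Rplp0, the base of the stalk that recruits elongation factors, had 2482, 2111 and 2088 CPM in bKO, against 2046, 2069 and 2313 CPM in WT. The acidic stalk proteins Rplp1 and Rplp2 had log2 differences of 0.04 (SE 0.16) and 0.04 (SE 0.17). Rps6, the substrate of the S6 kinases downstream of mTORC1, had 1498, 1242 and 1379 CPM in bKO, against 1313, 1272 and 1521 CPM in WT, a log2 difference of 0.01 (SE 0.12). Rpl5 and Rpl11, which bind MDM2 when ribosome assembly is disturbed, differed by 0.09 (SE 0.16) and 0.05 (SE 0.14). Rpl5 had 905, 654 and 763 CPM in bKO, against 683, 649 and 850.0 CPM in WT, and Rpl11 had 594, 479.5 and 562 CPM in bKO, against 522, 456 and 604 CPM in WT. None of these genes separated the genotypes.

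Many ribosomal protein genes carry small nucleolar RNAs in their introns, which guide the modification of ribosomal RNA. Of the members, 30 contained 58 annotated snoRNAs. Their median log2 difference was 0.03, against 0.04 for the 52 tested members without one, and their median RPKM was 612 against 871. Exons of 19 members overlap an antisense gene and those of 7 overlap another gene on their own strand, and the sources used here do not say whether strand was used in counting.

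The sequence before the start of transcription was read for 64 of the 84 members. It came as 76 windows of 250 bases before to 50 bases after a start, from RefSeq on GRCm38.p6. The other 20 members, Rpl3 among them, had no window and were not searched. Because JunB binds AP-1 sites, the letters TGANTCA were searched on both strands. They occurred in 2 of 76 windows (2.63%), those of Rpl22 and Rpl9, against 6.99% of the windows of all protein-coding genes. The letters CCGGAAG, a core bound by ETS factors, occurred in 27 windows (35.5%), against 11.6%. The letters GCCATNTT, a YY1 core, were found in 17 windows (22.4%), against 6.37%, and CACGTG, an E-box that MYC can bind, in 8 windows (10.5%), against 7.84%. A match is a description of letters and not a measured binding site. Shown are the 120 bases before the start of both genes with AP-1 letters and of 3 genes with ETS letters named by the rule above, with the matched letters in capitals. They lie at chr4:152325606-152325725 on the plus strand (Rpl22), chr5:65391432-65391551 on the minus strand (Rpl9), chr10:128549169-128549288 on the minus strand (Rpl41), chr7:141447531-141447650 on the plus strand (Rplp2) and chr4:86857368-86857487 on the minus strand (Rps6).
Rpl22: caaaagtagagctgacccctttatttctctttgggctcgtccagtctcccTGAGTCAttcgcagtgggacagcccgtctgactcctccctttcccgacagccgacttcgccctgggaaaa
Rpl9: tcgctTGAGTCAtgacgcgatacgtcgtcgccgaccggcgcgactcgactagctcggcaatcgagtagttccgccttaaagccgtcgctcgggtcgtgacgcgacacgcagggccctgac
Rpl41: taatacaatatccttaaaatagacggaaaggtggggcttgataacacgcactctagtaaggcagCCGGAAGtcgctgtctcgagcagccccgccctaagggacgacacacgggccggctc
Rplp2: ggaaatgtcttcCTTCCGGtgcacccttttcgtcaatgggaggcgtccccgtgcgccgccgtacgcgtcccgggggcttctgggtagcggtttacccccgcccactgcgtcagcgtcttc
Rps6: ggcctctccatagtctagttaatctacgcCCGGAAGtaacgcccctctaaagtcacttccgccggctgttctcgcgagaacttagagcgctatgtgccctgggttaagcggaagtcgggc

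Both genes with AP-1 letters were close to the family's median between the genotypes. Rpl22 differed by 0.01 (SE 0.15), as given above, and Rpl9 had a log2 difference of 0.05 (SE 0.12).

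Genes of the wider pathway likewise gave 0 calls after adjustment by edgeR, in lists of translation factors and TOP mRNAs (19 genes), ribosome biogenesis (42), the mTORC1 and S6 kinase pathway (21), snoRNA hosts (10) and the MYC network (9 of 10 tested). Fau and Rack1, ribosomal proteins that the naming rule leaves out, both had log2 differences of 0.02. Among translation factors 8 of 19 were above 0, against 50.9% of all genes (median -0.01), and 2 did not overlap, against 7.76%. The elongation factor gene Eef1a1 had 5065, 5383 and 4901 CPM in bKO, against 4955, 5094 and 4799.6 CPM in WT, and Eef2 differed by -0.04 (SE 0.09). Hnrnpa1 was higher in bKO without overlap (log2 difference 0.17, SE 0.10) and Eif4b was lower (-0.21, SE 0.12).

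In the ribosome biogenesis list 26 of 42 genes were above 0, against 50.9% of all genes, with a median of 0.08. The genotypes did not overlap in 5 of the 42, 3 higher and 2 lower in bKO, against 7.76% of all genes (3.68% higher and 4.07% lower). Heatr1, a factor for the transcription and processing of pre-ribosomal RNA, had 49.1, 52.1 and 55.6 CPM in bKO, against 39.4, 36.3 and 26.2 CPM in WT, a log2 difference of 0.62 (SE 0.18) with an unadjusted edgeR p of 0.0118. Ncl (nucleolin) had 389, 416 and 384 CPM in bKO, against 360.3, 349.5 and 333 CPM in WT, a difference of 0.19 (SE 0.10), and Nop58, a core protein of box C/D snoRNPs, differed by 0.23 (SE 0.12). Ubtf, which activates RNA polymerase I, had 81.1, 73.5 and 83.9 CPM in bKO, against 105.8, 96.8 and 100.6 CPM in WT, a difference of -0.35 (SE 0.11) with an unadjusted edgeR p of 0.0186. Rrp9 differed by -0.38 (SE 0.18). Emg1, a methyltransferase of the small subunit rRNA and among the most counted genes of the list, differed by 0.04 (SE 0.11).

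In the mTORC1 list 15 of 21 genes were above 0, against 50.9% of all genes, with a median of 0.08, and 4 did not overlap, against 7.76%. Mlst8, a subunit of mTOR complexes, and Lamtor3, of the lysosomal Ragulator, were higher in bKO without overlap (0.59, SE 0.23, and 0.47, SE 0.18). Rptor, the defining subunit of mTORC1, and Lamtor5 were lower (-0.44, SE 0.21, and -0.23, SE 0.14). Pdcd4 and Eif4ebp2, the most counted of the list, differed by 0.08 (SE 0.12) and 0.23 (SE 0.15). Of the snoRNA hosts 7 of 10 were above 0, against 50.9% of all genes, with a median of 0.09, and 2 did not overlap, against 7.76%. Gas5 and Snhg1, noncoding RNAs that begin with a TOP tract, were higher in bKO without overlap (0.12, SE 0.10, and 0.43, SE 0.16), and Eif4a2 differed by 0.05 (SE 0.16). In the MYC network 6 of 9 were above 0, against 50.9% of all genes, with a median of 0.18, and 2 did not overlap, against 7.76%. Myc had 97.7, 94.4 and 93.6 CPM in bKO, against 80.1, 85.7 and 69.7 CPM in WT, a difference of 0.28 (SE 0.12), Mlx differed by 0.29 (SE 0.16) without overlap, and Mxd4 by -0.15 (SE 0.23). None of these differences passed the adjusted edgeR threshold of 0.05. For the MYC network, set B minus set A was 0.38 log2 units within WT and 0.13 within bKO. It was 0.06 and 0.03 for the snoRNA hosts, 0.16 and -0.07 for the mTORC1 list, and -0.12 and -0.03 for ribosome biogenesis. The part of the set in the direction of these lists was not tested.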

How the data were processed

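The authors deposited raw read counts per gene, 1 table per library. They name STAR 2.3, featureCounts, bcl2fastq 2.19.0.316 and build mm10, per the submitters' processing notes, while the sources used here give no annotation release and no options. Per the labels' protocols, sorted Tregs gave SMARTer ultra-low-input libraries, read as single reads of 50 bases. PCR copies cannot be told from separate molecules, so the Wilson intervals of shares cover counting error only, taking each count as a separate read. The intervals of log2 differences come from the edgeR fit and include the spread between libraries.

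Of the identifiers, 53274 matched GENCODE M21. Counts were tested with edgeR 4.0.16 (filterByExpr, TMM, robust quasi-likelihood fit, genotype only, R 4.3.3), adjusted by Benjamini-Hochberg over all 20475 genes tested, at a threshold of 0.05. DESeq2 1.42.0, limma-voom (limma 3.58.1), other scalings and filters, a replicate block, a set term and each library left out were alternatives. The code was tested on simulated counts. CPM used TMM library sizes; log2 CPM used an offset of 0.5. Shared sequence was counted as exact stretches of 50 bases, either strand, over annotated transcripts. Libraries differed beyond sampling noise in every pair (chi-square per degree of freedom at least 35.8).

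Members and lists were chosen with earlier results of these data known. Genes named were the 6 members with the highest RPKM, members with a paralogue suffix and their partners, members whose genotypes did not overlap, members failing the filter, Rpsa, Rplp0, Rplp1, Rplp2, Rps6, Rpl5 and Rpl11, and from each list the 2 most counted genes and those without overlap where 5 or fewer. Rps2, Rpl7a, Rpl23a, Rpl29 and Rpl9 were named after their values were seen. Some genes are not reported here by name.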

Additional observations from a re-analysis of the deposited data

How the results depend on the processing

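Over the 15 alternatives to the edgeR fit, 0 members passed the adjusted threshold. The count over all genes was 0 with edgeR under every alternative, and 63 with DESeq2 (1208 unadjusted); the cause was not tested. Junb differed by -0.63 with DESeq2, where it passed the threshold, and by -0.69 to -0.57 with a library left out. The members' median log2 difference ran from -0.07 to 0.17 with a library left out, and the share difference from -0.19 to 0.57 percentage points. With the members and their copies kept out of the scaling factors, an alternative chosen after seeing the data, the median was 0.04 and 64 members were above 0. Over the 5 tested members with under 10% shared sequence, also chosen afterwards, it was 0.01. Equal replicate numbers did not pair the libraries (correlations of deviations -0.09, 0.19 and 0.04); with the replicate block 0 genes were called, the members' median was 0.04 and Junb differed by -0.63. Rpl3 differed by 0.13 to 0.16 with a library left out. Rpl39l, at the detection limit, differed by -2.09 without bKO 3 and by 0.13 without bKO 1. With 3 libraries a group, changes below the intervals given could not be detected, and reads shared with copies limit every level per gene.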
